A study of Mus musculus with 7 samples.

Results

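Gata4 and the GATA family, as examined here, are 8 genes taken by symbol from the 55364 genes of the expression table: the 6 GATA factors Gata1, Gata2, Gata3, Gata4, Gata5 and Gata6, and the FOG cofactors Zfpm1 and Zfpm2. The family was chosen by the rise of Gata4 from day 7 to day 21 in these libraries. The levels of Gata4 at those days thus chose it, and its change between the days is given as a description with no test. The other members were taken by name. The libraries were made from total RNA with the SMART-Seq Stranded Kit and sequenced, the samples were mini-oocytes, oocyte-like cells made from mouse embryonic stem cells (mESCs), and the values are TPM, the level of a transcript per length as a part of the whole library. There were 2 libraries of 4F mini-oocytes at day 7, 3 of 4F mini-oocytes at day 21 and 2 of 8F mini-oocytes at day 21.

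All 3 groups came from female mESCs of a hybrid 129/C57BL6 background, the line BVSC H18, grown in 2i and LIF and then plated on laminin in S10 medium with SCF and Y-27632. The 4F cells carried inducible Nobox, Figla, Tbpl2 and Lhx8, and the 8F cells carried these plus Stat3, Dynll1, Sub1 and Sohlh1. The 8F cells also carried an Npm2-mCherry reporter cassette, which the paper names for that line alone. The factors were fused to a destabilization domain that the ligand Shield1 blocks, and Shield1 was left out of fresh medium from day 12. No member of the GATA family was among the introduced factors. Each factor set was represented by 1 mESC line, and the culture held no gonadal somatic cells. Libraries at day 7 pooled 1000 cells and those at day 21 pooled 10 cells. Day 7 also came before Shield1 was left out, and day 21 after it. Day, cell number and Shield1 therefore changed together and cannot be told apart. No source used here says that the replicates came from separate cultures, so p-values measure only the spread between these samples.

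GATA factors are zinc finger proteins that bind the DNA letters A or T, then GATA, then A or G. Gata1, Gata2 and Gata3 are known chiefly from blood cell development, and Gata2 and Gata3 also act in trophoblast and other lineages. Gata4, Gata5 and Gata6 are known from heart, endoderm and gonad, and in the ovary Gata4 is best known from granulosa cells, the somatic cells that surround the oocyte. The FOG proteins Zfpm1 and Zfpm2 do not bind DNA themselves in this setting but bind a GATA zinc finger, and Zfpm1 recruits the NuRD chromatin complex.

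Between 9051761 and 17190271 reads per library fell on genes, as recovered from the steps of the TPM values. The 10 most abundant genes took 28.5% and 31.8% of all TPM at day 7 and between 10.2% and 14.0% at day 21. Genes above 0 numbered 21293 to 23334 in the 5 4F libraries, against 26563 and 26750 in the 8F libraries. The oocyte label matched its markers: the summed TPM of 10 oocyte genes was 12743 and 15142 at day 7, between 35493 and 38231 in 4F and 29977 and 31010 in 8F at day 21. Most of the day 7 sum was Dppa3, at 7125 and 7804 TPM, which stayed between 6987 and 7689 TPM in 4F at day 21. The defining oocyte genes Zp3, Gdf9 and Npm2 had 801 and 1207, 196 and 303, and 695 and 743 TPM at day 7. Changes are given as log2 fold changes of TPM + 1 from a fit with limma over 21780 genes that reached 1 TPM in at least 2 of the 7 libraries, with Benjamini-Hochberg adjustment over all of them and a threshold of 0.05. Of the 8 members, 5 reached that level: Gata1, Gata2, Gata3, Gata4 and Zfpm1. The median change over all genes tested was 0.17 from day 7 to day 21 in 4F, 0.24 from 4F at day 7 to 8F at day 21, and 0.06 from 4F to 8F at day 21.

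The GATA factor mRNA was made up of different genes at the 2 days. At day 7 Gata2 and Gata3 together made up most of it, and at day 21 Gata4 did, in every library of both lines. The share of Gata4 in the summed TPM of the 6 GATA factors was 14.7% and 4.60% at day 7. In 4F mini-oocytes at day 21 that share was 80.4%, 96.3% and 97.2%, and in 8F mini-oocytes it was 94.0% and 93.5%. The summed TPM itself was 20.8 and 34.1 at day 7, between 40.2 and 48.1 in 4F at day 21 and 101 and 93.8 in 8F. Because each library pooled cells, fewer cells with an mRNA and less of it per cell cannot be told apart. The values are also shares of a library, so a change in the total RNA of a cell is not seen.

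**Figure D1:**
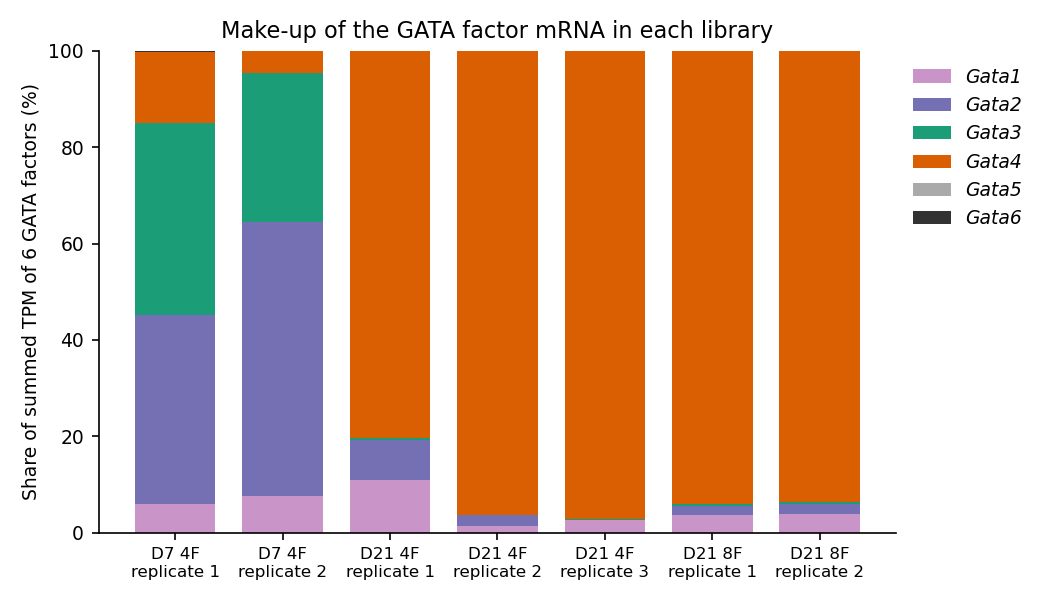
Stacked bars give, for each of the 7 libraries (horizontal axis), the percent of the summed TPM of 6 GATA factors that each factor took (vertical axis, %). Gata4 took 14.7% and 4.60% at day 7 and from 80.4% to 97.2% at day 21, while Gata2 and Gata3 filled most of the day 7 bars.

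Gata4 (ENSMUSG00000021944.15) lies on the minus strand of mouse chromosome 14, at 63198922 to 63271692 in mm10. Its level was 3.07 and 1.57 TPM in the 4F libraries at day 7, on 47 and 32 reads. At day 21 it was 32.4, 46.3 and 42.9 TPM in 4F mini-oocytes, on 592, 786 and 702 reads. In 8F mini-oocytes at day 21 it was 95.4 and 87.8 TPM, on 2170 and 1936.5 reads, the last value being fractional because the authors' counting splits a read among overlapping features. The 3 groups did not overlap. Among the genes tested, Gata4 stood above 30.1% and 25.8% of them at day 7, above 74.2% to 80.5% in 4F at day 21, and above 90.7% and 89.5% in 8F at day 21. The mean at day 21 was 17.5 times the day 7 mean in 4F and 39.5 times it in 8F. On the log2 scale these differences were 3.67 (SE 0.26) and 4.84 (SE 0.28), and both rest on the same 2 day 7 libraries.

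The gene was chosen for its rise by day 21 and not for the difference between the lines. The same day 21 values enter both, so the p-value given here is not independent of that choice. Gata4 was higher in 8F than in 4F mini-oocytes, with means of 91.6 ± 5.38 TPM (SD, n = 2) and 40.5 ± 7.28 TPM (SD, n = 3), a ratio of 2.26. The log2 fold change was 1.17 (SE 0.26, 95% interval 0.55 to 1.79), with an adjusted p of 0.0423 by limma. Gata4 was the only member past the threshold among the 5 tested in that comparison, in which 8.37% of all genes tested were called. The call stood close to the threshold: it was kept in 9 of 18 alternative fits and lost in 9, among them every fit without 1 of the 5 day 21 libraries, where the adjusted p ranged from 0.0731 to 0.327. The difference was positive in all 18, between 1.02 and 1.35. The 8F values were written with up to 17 decimals and the others with up to 9, and the sequencing used either a NovaSeq X Plus or an earlier NovaSeq model without a statement of which libraries went where, so a technical difference between the lines' libraries was not tested.

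The other 4 tested members did not pass the threshold between the lines. The level of Zfpm1 was 39.4, 29.0 and 36.2 TPM in 4F and 21.7 and 27.2 TPM in 8F at day 21. Its log2 fold change was -0.49 (SE 0.19, 95% interval -0.96 to -0.03), with an adjusted p of 0.196 by limma. For Gata1 the log2 fold change was 0.78 (95% interval -0.63 to 2.18), for Gata2 it was 0.53 (-1.15 to 2.21) and for Gata3 it was 0.34 (-0.43 to 1.12). The upper bounds of Gata1 and Gata2 reach past the 1.17 of Gata4, and that of Gata3 does not on this scale. At the low day 21 levels of Gata3 its change follows the pseudocount and scaling, and ran from -0.09 to 2.49 over 18 alternatives. The bound of Gata3 therefore does not show a smaller difference than that of Gata4.

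**Figure D2:**
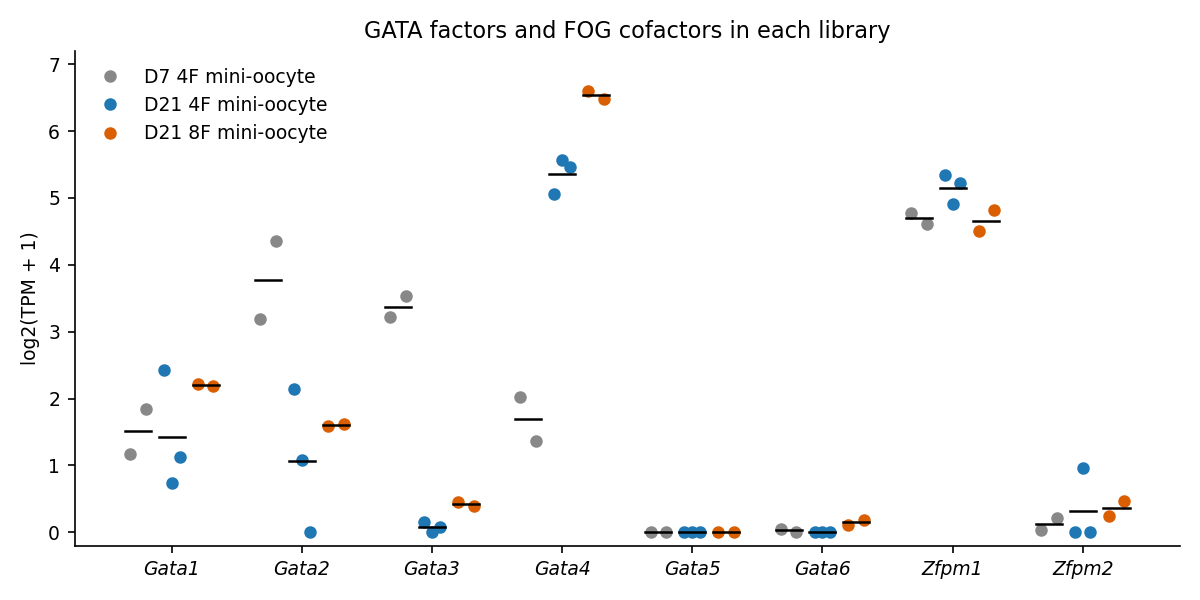
Each point is the level of a gene (horizontal axis) in 1 library, as log2(TPM + 1) (vertical axis), coloured by group, and each short line is the group's mean. Gata4 stands at 1.57 to 3.07 TPM at day 7, 32.4 to 46.3 TPM in 4F and 87.8 to 95.4 TPM in 8F at day 21, while Gata3 and Gata2 are highest at day 7.

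Gata3 (ENSMUSG00000015619.10) lies on the minus strand of chromosome 2, at 9857078 to 9890034. It is a factor of T cell, trophoblast and epithelial development. It had 8.30 and 10.6 TPM at day 7, on 129.5 and 219.5 reads. At day 21 it had 2, 0 and 1 reads in the 4F libraries and 8.5 and 7 reads in the 8F libraries, at most 0.367 TPM. All day 21 libraries were thus far below both day 7 libraries. The log2 fold change from day 7 was -3.30 (SE 0.32) in 4F, with an adjusted p of 0.000476 by limma, and -2.95 (SE 0.35) in 8F, with an adjusted p of 0.00135. Since the day 21 levels were near 0, the size of the change follows the pseudocount and ran from -1.51 to -7.61 in 4F over the 18 alternatives, in all of which it stayed past the threshold. Gata3 reached 1 TPM in the day 7 libraries alone, so it entered the test only through the group where it is high.

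An antisense gene, Gm13256, overlaps the exons of Gata3 by 155 bases on the other strand. Its level was 8.09 and 13.1 TPM at day 7, 0 in the 3 4F libraries at day 21 and 0.165 and 0 TPM in the 8F libraries. The counting options given by the study name no strand setting, so in the shared stretch the reads of the gene and of its antisense partner cannot be told apart. Of the Gata3 exons this is 155 of 3978 bases.

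Gata2 (ENSMUSG00000015053.14), a factor of blood stem cells and trophoblast, lies on the plus strand of chromosome 6, at 88193891 to 88207032. Its level was 8.17 and 19.4 TPM at day 7, on 173 and 547 reads. At day 21 it was 3.40, 1.11 and 0 TPM in the 4F libraries, on 86, 26 and 0 reads, and 2.00 and 2.07 TPM in the 8F libraries, on 63 reads each. Every day 21 library was below both day 7 libraries, and the 3 4F libraries differed among themselves by more than counting error. A count of 0 reads was taken to allow up to 3, and 86 reads allow at least 68.8 (exact 95% Poisson limit). Both bounds cover counting error only. The log2 fold change from day 7 was -2.70 (SE 0.70) in 4F, with an adjusted p of 0.0216, and -2.17 (SE 0.77) in 8F, with an adjusted p of 0.0661. In 4F the call was kept in 10 of 18 alternatives and lost in 8, including those without day 7 replicate 2 (adjusted p = 0.131), without D21 4F replicate 2 (0.0505) and without either 8F library (0.0637 and 0.0637). In 8F it was gained in 6 of 18.

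Gata2 and Gata3 were thus the members, other than Gata4, that passed the threshold from day 7 to day 21 in 4F, 2 of the 4 tested, in a comparison where 40.6% of all genes tested were called. Since Gata3 passed the level filter through day 7 alone, the count is a description. Between 4F at day 7 and 8F at day 21 it was Gata3 alone, 1 of 4, where 37.2% of all genes were called. Both comparisons share the day 7 libraries. The other 2 tested members were Gata1 and Zfpm1.

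**Figure D3:**
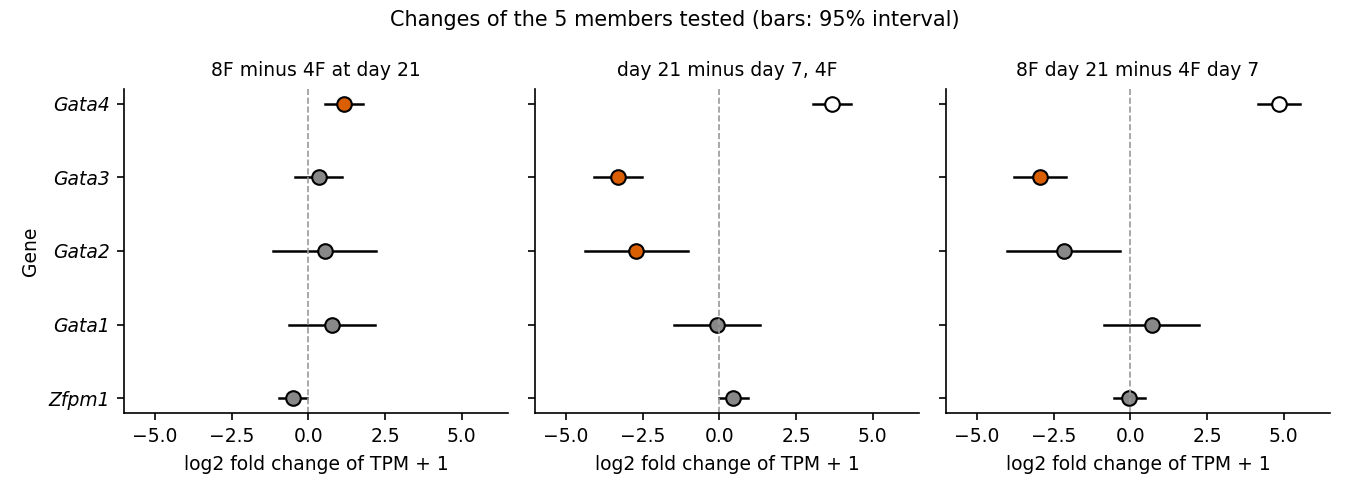
For the 5 members tested (vertical axis), points give the log2 fold change of TPM + 1 (horizontal axis) in the 3 comparisons, and bars its 95% interval. Filled orange points passed the adjusted threshold of 0.05, grey points did not, and the white points of Gata4 chose the family and were not tested; Gata3 stood at -3.30 and -2.95 and Gata2 at -2.70 and -2.17.

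Promoter windows of 5 members came from the RefSeq table of the build GRCm38.p6: Gata1, Gata2 with a pair of starts, Gata3, Gata5 and Zfpm1. Each ran from 250 bases before to 50 bases after an annotated start. No window of Gata4, Gata6 or Zfpm2 was searched, so elements at those genes are not described. The windows of Gata3 and Gata2 are shown because both genes were lower at day 21, and that of Gata1 because it was not called and differs in composition. They are written 5′ to 3′ on the gene's strand, with capitals for the GATA element (AGATAA, also with the opening A replaced by T, the closing A by G, or both) and for the NOBOX element (TAATTG), each searched on both strands.
Gata3, minus strand, chr2:9878551-9878850: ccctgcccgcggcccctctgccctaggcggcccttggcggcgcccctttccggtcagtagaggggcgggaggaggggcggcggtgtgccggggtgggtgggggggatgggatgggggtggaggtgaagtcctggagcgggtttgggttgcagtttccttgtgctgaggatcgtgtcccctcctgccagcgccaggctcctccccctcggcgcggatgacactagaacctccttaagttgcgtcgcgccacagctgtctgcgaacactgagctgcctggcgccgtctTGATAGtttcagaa
Gata2, plus strand, upstream start, chr6:88193641-88193940: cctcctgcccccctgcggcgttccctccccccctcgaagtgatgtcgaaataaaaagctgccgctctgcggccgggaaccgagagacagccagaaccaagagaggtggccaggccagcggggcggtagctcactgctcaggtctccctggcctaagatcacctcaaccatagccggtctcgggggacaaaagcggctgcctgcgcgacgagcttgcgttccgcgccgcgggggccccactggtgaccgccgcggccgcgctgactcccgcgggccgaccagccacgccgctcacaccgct
Gata2, plus strand, downstream start, chr6:88198414-88198713: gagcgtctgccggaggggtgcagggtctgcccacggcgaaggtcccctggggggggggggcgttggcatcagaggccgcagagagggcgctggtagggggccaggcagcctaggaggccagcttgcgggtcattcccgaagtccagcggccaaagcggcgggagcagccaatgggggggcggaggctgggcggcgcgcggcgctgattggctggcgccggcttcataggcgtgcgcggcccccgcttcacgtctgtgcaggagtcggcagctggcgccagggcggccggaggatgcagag
Gata1, minus strand, chrX:7967861-7968160: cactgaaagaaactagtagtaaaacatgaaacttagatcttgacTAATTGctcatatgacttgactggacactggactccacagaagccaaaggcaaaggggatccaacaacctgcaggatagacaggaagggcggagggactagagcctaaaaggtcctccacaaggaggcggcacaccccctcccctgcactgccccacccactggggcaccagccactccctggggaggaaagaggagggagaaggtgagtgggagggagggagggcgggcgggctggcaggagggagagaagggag

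A GATA element was found in the Gata3 window alone among the 6 member windows searched, as TGATAG starting 36 bases after the start. Of the 32851 promoter windows of the table, 29.8% hold one. The NOBOX element, letters that the introduced factor Nobox binds, was found in the Gata1 window alone, as TAATTG starting 206 bases before the start, and 8% of all windows hold one. An E-box (CANNTG), the kind of site that basic helix-loop-helix factors such as Figla and Sohlh1 bind, was found as CATATG in the Gata1 window, CAGCTG in the downstream Gata2 window and in the Gata3 window, and CACGTG in the Gata5 window, against 72.3% of all windows. No TATAAA was found, and 13.6% of all windows hold it. The matches did not overlap each other. The windows of Gata2 and Gata3 were 67.3% to 73.7% G and C with 22 to 32 CG pairs, and that of Gata1 was 57.3% with 4. That of Zfpm1, also not called, was 73.7% with 37, and that of Gata5, at 0 in all libraries, was 69.7% with 26. The median window had 52.7% with 7. A match of letters is a description of the window and not a site.

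Gata1 (ENSMUSG00000031162.14, chromosome X, 7959260 to 7978071, minus strand), the master factor of red cells and megakaryocytes, was low throughout. It had 1.25 and 2.59 TPM at day 7, 4.38, 0.661 and 1.17 TPM in 4F and 3.66 and 3.56 TPM in 8F at day 21, on 7 to 52 reads. The groups of day 7 and 4F at day 21 overlapped, and the 8F values lay inside the range of the 4F values. Its log2 fold change from day 7 was -0.08 (SE 0.59) in 4F and 0.70 (SE 0.64) in 8F, with adjusted p values of 0.932 and 0.441 by limma.

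Zfpm1 (ENSMUSG00000049577.15, chromosome 8, 122282141 to 122337251, plus strand), which encodes FOG1, was the most abundant member at day 7, with 26.3 and 23.5 TPM on 362 and 430 reads. Its log2 fold change to day 21 was 0.46 (SE 0.19, adjusted p = 0.105) in 4F and -0.03 (SE 0.21, adjusted p = 0.918) in 8F. With its day 21 levels given above, Zfpm1 stayed between 21.7 and 39.4 TPM in all 7 libraries. A longer annotated gene, Gm20388, spans it on the same strand and shares none of its exon bases.

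Zfpm2 (ENSMUSG00000022306.9, chromosome 15, 40655035 to 41104592, plus strand), which encodes FOG2, the known partner of Gata4 in heart and gonad, did not reach 1 TPM in any library. It had 1 and 8 reads at day 7, 0, 39 and 0 reads in 4F and 10 and 21 reads in 8F at day 21. The 39 reads of the second 4F library (exact 95% Poisson limits 27.7 to 53.3) stood apart from the 0 reads of its 2 replicates, each of which allows up to 3. Its highest level was 0.941 TPM. Gata4 was thus found at 32.4 TPM and more in the 3 4F libraries at day 21 while Zfpm2 was detected in 1 of them.

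Gata6 (ENSMUSG00000005836.10, chromosome 18, 11052064 to 11085635, plus strand) and Gata5 (ENSMUSG00000015627.5, chromosome 2, 180325133 to 180334699, minus strand) are the close relatives of Gata4. Gata5 had 0 reads in all 7 libraries, and 3 reads would have been 0.157 to 0.233 TPM. Gata6 had 1 and 0 reads at day 7, 0 in the 3 4F libraries and 3 and 5 reads in the 8F libraries at day 21, at most 0.136 TPM. At this depth levels of Gata5 below that floor were not detectable. The intervals of 0 and 5 reads overlapped, so Gata6 was not told apart between the lines at day 21.

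The order of the levels changed with the day. At day 7 the means ran from Zfpm1 (24.9 TPM) over Gata2 (13.8), Gata3 (9.43), Gata4 (2.32) and Gata1 (1.92) to Zfpm2, Gata6 and Gata5, all under 0.1 TPM. The ranges of Gata2 and Gata3 overlapped, as did those of Gata4 and Gata1. In 4F at day 21 Gata4 (40.5 TPM) and Zfpm1 (34.9) led with overlapping ranges, followed by Gata1 (2.07), Gata2 (1.50), Zfpm2 (0.314) and Gata3 (0.0557), each overlapping the next. In 8F at day 21 the order was Gata4 (91.6 TPM), Zfpm1 (24.4), Gata1 (3.61), Gata2 (2.03), Gata3 (0.339) and Zfpm2 (0.285), and only the last pair overlapped.

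The genes whose levels followed Gata4 most closely over the 7 libraries, among 8109 other protein-coding genes whose day 21 mean was 10 TPM or more, were Prdm6, Zdhhc18, Lrrc8d, Lmo1 and Fam83g, with Pearson r between 0.997 and 1.00 on log2(TPM + 1). The 7 libraries fall into 3 groups, so the r mainly repeats the order of the groups, and 10.3% of those genes had an r of at least 0.95. Prdm6, a PR domain protein, had 1.47 and 0.606 TPM at day 7, 20.2, 26.5 and 26.6 TPM in 4F and 60.4 and 55.3 TPM in 8F at day 21. Lmo1, a LIM-only protein related to Lmo2, which joins GATA factors to other proteins in blood cells, had 7.88 and 3.33 TPM, then 56.7, 82.6 and 68.1 TPM, then 133 TPM in both 8F libraries.

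The protein-coding genes on either side of Gata4 did not share its pattern of levels. Neil2, a DNA glycosylase gene 5.07 kb away, had 36.8 and 30.7 TPM at day 7, 27.6, 26.9 and 42.3 TPM in 4F and 33.9 and 25.0 TPM in 8F at day 21, and did not pass the threshold in either comparison (log2 fold change -0.09, SE 0.25, from day 7 to day 21 in 4F and -0.11, SE 0.25, between the lines). Blk, a B cell kinase gene 101 kb away, had 2.17 TPM in 1 day 7 library and 0 in the other 6 libraries.

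Many genes of the cell types in which GATA factors are best known stayed under the level filter. So did most of all genes, as 21780 of the 55364 listed passed it, and the numbers under it are a description. The gene lists here and below were chosen with earlier results of these data known. Their counts beside the share over all genes are therefore a description. Of 20 gonadal somatic genes, 9 reached the level filter, and from day 7 to day 21 in 4F 1 was higher and 1 lower, where 25.3% of all genes tested were called higher and 15.3% lower. Star, a steroidogenic transport gene and known GATA4 target, went from 4.00 and 4.52 TPM to 1.19, 0.951 and 1.39 TPM (log2 fold change -1.27, adjusted p = 0.0267 by limma), a call lost in 7 of 17 alternatives. Nr5a2, a nuclear receptor, went from 2.46 and 3.73 TPM to 18.2, 8.94 and 7.32 TPM (1.53, adjusted p = 0.0324), a call lost in 12 of 18 alternatives. The summed TPM of the list was 22.8 and 43.0 at day 7, 20.2 to 39.5 in 4F and 24.9 and 32.4 in 8F at day 21. Of the defining granulosa genes, Amh was at most 0.318 TPM, Fshr at most 2.53 TPM in 1 library with 0 in 5 of the 7, and Foxl2 at most 0.721 TPM in 4F and 2.69 and 1.49 TPM in 8F. Inha was at 0 in all 7 libraries, while Wt1 and Fst were above 0 only in 8F, at most 0.112 TPM. Other genes of the list were detected. Cyp19a1 had 1.13, 0.0509 and 0.369 TPM in 4F and 1.18 and 1.64 TPM in 8F at day 21. Over the 7 libraries Kitl ranged from 1.94 to 11.0 TPM and Hsd3b1 from 2.47 to 9.07 TPM. Inha, Wt1, Fst, Cyp19a1, Kitl and Hsd3b1 were named after their values were seen.

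Between the lines at day 21, 1 gonadal somatic gene was higher in 8F and 0 lower, where 3.95% of all genes tested were called higher and 4.41% lower. It was Nr0b1, a nuclear receptor without a typical DNA-binding domain, which the table lists at 0 for all 4F libraries and whose 8F values were 1.52 and 3.23 TPM (adjusted p = 0.0266), a call lost in 5 of 17 alternatives. Nr0b1 and Foxl2 reached 1 TPM in the 8F libraries alone and so entered the test only through the group where they are high, and the count of 1 is a description. For the 0 lower, limma gave 0 genes of the list lower at an unadjusted p under 0.05 and voom on the recovered reads also called 0 lower.

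The endoderm list gave a mixed pattern. Of 20 genes 12 were tested, and by day 21 in 4F 1 was higher and 5 lower, where 25.3% of all genes tested were called higher and 15.3% lower. The defining endoderm factors Sox17, Sox7 and Foxa2 did not exceed 0.644 TPM. Of the 5 that fell, 4 encode basement membrane or matrix proteins: Sparc went from 71.8 and 63.0 TPM to 0, 0 and 1.64 TPM (log2 fold change -5.63, SE 0.53), Col4a2 from 138 and 67.0 TPM to between 1.80 and 2.92 TPM (-4.94, SE 0.44), Col4a1 from 301 and 171 TPM to between 5.58 and 13.5 TPM (-4.72, SE 0.42) and Nid1 from 9.74 and 35.6 TPM to between 0.103 and 4.37 TPM. The other was Dab2, an endocytic adaptor, which went from 52.8 and 59.9 TPM to between 3.43 and 4.55 TPM (-3.49, SE 0.28). Nid1 and Dab2 were named after their values were seen. Lamb1, a laminin chain, rose from 70.3 and 54.2 TPM to between 468 and 537 TPM (3.00, SE 0.14). Sparc, Col4a1 and Col4a2 stayed past the threshold in all 18 alternatives and Lamb1 in all 17 that gave it a value. The median change of the 12 was -0.40, against 0.17 for all genes. Between the lines limma called 0 of the 12, with 2 at an unadjusted p under 0.05 and 0 by voom.

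Of 16 cardiac genes 6 were tested, and from day 7 to day 21 in 4F 2 were called higher and 4 lower, where 25.3% of all genes tested were higher and 15.3% lower. Of the 4, Hand1, Nppa and Myh6 reached 1 TPM in the day 7 libraries alone and entered the test only through the group where they are high, so the count of lower genes is a description. The defining factor Nkx2-5 was at 0 in all 7 libraries, and Tnnt2 did not exceed 0.022 TPM. Hand1, also a trophoblast factor, went from 12.0 and 63.6 TPM to 0 in the 3 4F libraries, Nppa from 13.1 and 24.1 TPM to at most 0.276 TPM and Tnni3 from 23.7 and 11.6 TPM to between 0.414 and 1.16 TPM. Myh6, the defining myosin chain, went from 5.36 and 2.51 TPM to at most 0.308 TPM. Isl1, a homeodomain factor, rose from 1.42 and 0.193 TPM to between 5.07 and 9.88 TPM (2.35, SE 0.48). Srf, a broadly used partner of GATA4 on cardiac genes, rose from 26.6 and 27.5 TPM to between 118 and 161 TPM (2.30, SE 0.15). Between the lines 0 of the 6 passed by limma, with 0 at an unadjusted p under 0.05 and 0 by voom.

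Of 16 blood genes 5 were tested, with 1 higher and 1 lower by day 21 in 4F, against 25.3% and 15.3% of all genes tested. Tal1 did not exceed 0.0404 TPM, Hbb-bs was at 0 in all 7 libraries and Klf1 was above 0 in 1 day 7 library at 2.49 TPM. Ldb1, the adaptor that links GATA1 and LMO2 in red cells, rose from 19.8 and 23.4 TPM to between 47.1 and 79.7 TPM (log2 fold change 1.53, SE 0.23). Lmo2 went from 1.88 and 1.95 TPM to 0 in the 3 4F libraries (adjusted p = 0.0167), a call lost in 5 of 17 alternatives. Between the lines 0 of the 5 passed by limma, with 0 at an unadjusted p under 0.05 and 0 by voom.

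Of 16 trophoblast genes 9 were tested, and from day 7 to day 21 in 4F, where Gata2 and Gata3 also fell, 5 were lower, 1 was higher and 3 did not pass. Over all genes tested 15.3% were lower and 25.3% higher. Of the 5, Esx1 and Tead4 reached 1 TPM in the day 7 libraries alone and entered the test only through the group where they are high, so the count is a description. The summed TPM of the list was 1252 and 1681 at day 7, 70.5 to 163 in 4F and 61.4 and 69.6 in 8F at day 21. Most of the day 7 sum came from the keratins Krt8 and Krt18, so the sum mainly describes these genes. Krt8 went from 660 and 863 TPM to 36.4, 128 and 50.1 TPM in 4F and 24.4 and 33.2 TPM in 8F. Krt18, a keratin of simple epithelia, went from 436 and 658 TPM to 1.19, 8.81 and 3.82 TPM (log2 fold change -6.84, SE 0.65). Esx1, a placental homeobox gene, went from 51.4 and 33.1 TPM to 0, 0.696 and 0 TPM (-5.15, SE 0.45), and Plac1 from 68.9 and 83.9 TPM to 2.29, 5.78 and 2.22 TPM (-4.21, SE 0.37). Krt18, Esx1 and Plac1 stayed past the threshold in all 18 alternatives. The gene called higher was Tfap2a, from 1.04 and 0.664 TPM to between 3.05 and 6.03 TPM (1.45, SE 0.41), lost in 10 of 17. The factors of trophoblast stem cells in the list differed at day 7: Cdx2 and Elf5 were at 0 in both libraries, Eomes had 2.33 and 0.968 TPM, Tead4 had 10.2 and 12.1 TPM and Tfap2c had 16.6 and 21.6 TPM. Tead4 fell to at most 0.640 TPM in 4F at day 21 (adjusted p = 0.00195), while Tfap2c, at 11.4 to 14.6 TPM, and Eomes did not pass the threshold. Krt8, Tead4 and Tfap2c were named after their values were seen. The part of trophoblast cells in the fall of Gata2 and Gata3 was not tested. Between the lines Plac1 was the 1 gene called, at 15.7 and 14.2 TPM in 8F (log2 fold change 1.94, adjusted p = 0.0290), a call lost in 10 of 18 alternatives.

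GATA and FOG factors work with cofactor proteins that read or change chromatin. Of 18 cofactor genes 17 were tested, all but Lmcd1, which was above 0 in 1 library at 0.295 TPM, among them the NuRD subunits that Zfpm1 recruits, the corepressors Ctbp1 and Ctbp2, the acetyltransferases Ep300 and Crebbp and the remodeller Smarca4. Their summed TPM was 1819 and 1965 at day 7, 3488 to 3872 in 4F and 2436 and 2673 in 8F at day 21. From day 7 to day 21 in 4F 7 were higher and 1 lower, where 25.3% of all genes tested were higher and 15.3% lower, with a median change of 0.08 against 0.17 for all genes. Rbbp7, a histone-binding NuRD subunit, rose from 175 and 261 TPM to 1611, 1509 and 1680 TPM (log2 fold change 2.90, SE 0.18), and Mbd3, the NuRD subunit with a methyl-CpG-binding fold, from 96.8 and 119 TPM to 254, 229 and 238 TPM (1.15, SE 0.12). Both stayed past the threshold in all 18 alternatives. Mta1, a further subunit, rose from 116 and 115 TPM to between 188 and 267 TPM (0.93, SE 0.17), and Ctbp1 fell from 43.7 and 38.2 TPM to between 22.2 and 28.5 TPM (-0.63, SE 0.18), calls lost in 2 and 10 of 18 alternatives. The counts of the list turned with the scaling: quantile normalization gave 2 higher and 9 lower, and voom on recovered reads, which moved the median of all genes to -0.32, gave 2 higher and 10 lower. The 7 to 1 split is therefore a statement about TPM.

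Between the lines at day 21 0 of the 17 cofactor genes were higher in 8F and 6 were lower, where 3.95% of all genes tested were higher and 4.41% lower, with a median of -0.53 against 0.06 for all genes. With the replicate block 0 were lower. Mbd3 was at 116 and 127 TPM in 8F (log2 fold change -0.98, SE 0.12, adjusted p = 0.00914 by limma), Hdac1, a histone deacetylase of NuRD, at 51.6 and 56.2 TPM against 83.4 to 101 TPM in 4F (-0.79, SE 0.12) and Smarca4 at 139 and 160 TPM against 241 to 250 TPM (-0.71, SE 0.10). The other 3 were Chd4, Hdac2 and Gatad2a. Unadjusted p fell under 0.05 for 11 of the 17, and voom called 0 higher and 7 lower. The count of 6 fell to 3, 4 and 3 without 4F replicate 1, 2 and 3, to 0 without 8F replicate 1, to 1 without 8F replicate 2, to 1 without the trend in limma and to 3 with no level filter, and was 11 with array weights. Zfpm1 also had lower values in 8F, as given above, without passing the threshold, while Gata4 was higher there.

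**Figure D4:**
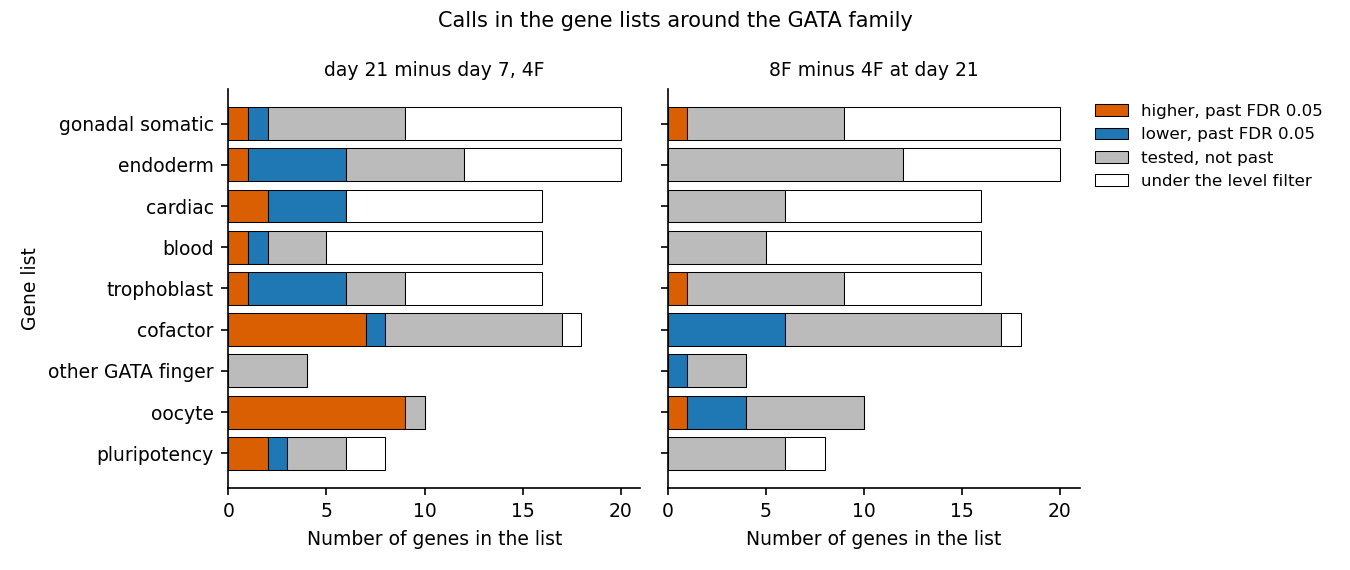
For 9 gene lists (vertical axis), bars count the genes (horizontal axis) called higher or lower by limma at an adjusted 0.05, tested without a call, or under the level filter, from day 7 to day 21 in 4F and between the lines at day 21. The trophoblast and endoderm lists have 5 genes lower each by day 21, and the cofactor list has 6 lower in 8F.

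A further 4 genes with a GATA-type zinc finger were tested, and limma called 0 of the 4 from day 7 to day 21 in 4F, with 0 at an unadjusted p under 0.05, while voom called 0 higher and 2 lower. Zglp1, a germ cell gene for a GATA-like protein, had 13.1 and 15.5 TPM at day 7, 11.0, 14.0 and 16.5 TPM in 4F and 14.4 and 16.3 TPM in 8F. Trps1, a repressor, ranged from 14.2 to 24.6 TPM over the 7 libraries and Gatad1 from 14.2 to 26.4 TPM. Rere was lower in 8F, at 79.3 and 89.8 TPM against 122 to 154 TPM in 4F at day 21 (log2 fold change -0.68, SE 0.13, adjusted p = 0.0293), a call lost in 7 of 18 alternatives. At day 21 Gata4 was above Zglp1, Trps1 and Gatad1 in every library on the per-length TPM scale.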

How the data were processed

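RNA-seq of 7 mini-oocyte libraries was examined. Per the study's methods, reads were trimmed with Trim Galore, aligned to mm10 with HISAT2, cleared of rRNA reads with bedtools, limited to unique alignments and counted per gene with featureCounts on GENCODE vM25 with fractional counting of overlaps and no strand option named. The authors deposited TPM per gene and library, with no counts; tool versions are not given in the sources used here. Replicates were not pooled.

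The members and gene lists were chosen with earlier results of these data known. The named list genes were the defining genes and, per list, comparison and direction, up to 3 past the threshold with the largest change, beside the 5 genes most like Gata4 and genes overlapping a member or neighbouring Gata4. Tests used limma 3.58.1 in R 4.3.3 on log2(TPM + 1), 1 fit over all 3 groups, eBayes with trend, two-sided, Benjamini-Hochberg over the 21780 genes that reached 1 TPM in 2 or more libraries, at 0.05; the pseudocount understates changes of low genes. Reads were recovered as TPM times GENCODE vM21 exon length (54312 of 55364 IDs matched, 98.1%) over the value of 1 read; values under 20 reads came out whole, within 0.02, for 77.7% to 83.9%, and as multiples of one sixth for at least 99.0%. Depth was 9051761 to 17190271 reads on genes. A count of 0 was taken to allow up to 3 reads throughout; this floor and the exact Poisson limits (95%) of counts above 0 cover counting error only. The fit was tested on simulated data. Positions are mm10 from GENCODE vM21. Alternatives were another pseudocount, filter, scaling, moderation, weighting, block or model, 2 groups alone and each library left out.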

Additional observations from a re-analysis of the deposited data

How the results depend on the processing

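Gata3 stayed past the threshold in all 18 alternatives in both comparisons of day 21 with day 7. It had passed the level filter through the day 7 libraries alone, where it is high, so this is a description. The count of members called between the lines at day 21, 1 as reported, was 0 with a pseudocount of 0.1, with no filter, without the trend and with the replicate block, and ranged from 0 to 1 over the fits without 1 library. Members other than Gata4 called from day 7 to day 21 in 4F, 2 as reported, numbered 1 with a pseudocount of 0.1, with no filter, with only the 2 groups compared and with the replicate block, and 1 to 2 over the fits without 1 library. From 4F at day 7 to 8F at day 21 the count, 1 as reported, was 2 with a pseudocount of 5, median-of-ratios rescaling, only the 2 groups compared and voom, and 1 to 2 over the fits without 1 library. Causes were not tested. Replicate numbers were not shown to pair libraries, with correlations of same-numbered deviations from -0.037 to 0.011. Signs turned only for changes that passed in no alternative: Gata1 from day 7 to day 21 in 4F was 0.00076 with a pseudocount of 5, 0.21 by quantile normalization, 0.071 with the replicate block and -0.58 to 0.26 over the fits without 1 library; Gata2 between the lines was -0.0058 with the replicate block and -0.0058 to 1.06 without 1 library; Gata3 between the lines was -0.089 by quantile normalization; Zfpm1 was -0.046 by voom from day 7 to day 21 in 4F, and -0.19 to 0.12 without 1 library from 4F at day 7 to 8F at day 21. Of 42 calls of list genes, 22 held in every alternative and 20 were lost in at least 1, with no change of sign. The 22 include those of Hand1, Nppa and Esx1, which entered the test only through the day 7 libraries, where they are high. Low reads limit Gata5, Gata6 and Zfpm2.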

Other observations

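Beside the rise of Gata4, 9 of 10 oocyte genes were higher at day 21 than at day 7 in 4F by limma, where 25.3% of all genes tested were, and 0 were lower, with 9 of the list at an unadjusted p under 0.05, while voom gave 8 higher and 1 lower. Gdf9, an oocyte growth factor, went from 196 and 303 TPM to 4975, 3952 and 4912 TPM (log2 fold change 4.23, SE 0.21), and Npm2, an egg histone chaperone, from 695 and 743 TPM to 4381, 4221 and 4051 TPM (2.55, SE 0.11). Between the lines 1 oocyte gene, Bmp15, was higher and 3, Npm2, Ddx4 and Nlrp5, were lower in 8F, where 3.95% of all genes tested were higher and 4.41% lower. These counts changed with the processing: 0 were higher by median-of-ratios rescaling, by quantile normalization and with the replicate block, 3 were higher by voom, and 0 were lower with the replicate block and without either 8F library. The calls of Bmp15 and Nlrp5 were each lost in 11 of 18 alternatives, that of Ddx4 in 6 and that of Npm2 in 3. Npm2 had 2119 and 2053 TPM in 8F (-1.01, SE 0.11), the opposite direction to Gata4, whose level was higher there. The 8F cells carried an Npm2-mCherry reporter, and its part in the Npm2 level was not tested.

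Of 8 pluripotency genes 6 were tested, and 2 were higher and 1 lower by day 21 in 4F, against 25.3% and 15.3% of all genes tested. Pou5f1, which growing oocytes also express, rose from 24.4 and 30.1 TPM to 167, 154 and 267 TPM (2.77, SE 0.27), and Zfp42 fell from 20.6 and 21.9 TPM to 6.35, 6.79 and 8.75 TPM (-1.43, SE 0.27). Nanog was above 0 in 1 day 7 library alone, at 0.940 TPM. Between the lines limma called 0 of the 6, with 2 at an unadjusted p under 0.05, while voom called 0 higher and 1 lower.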
